A study of Chelonia mydas with 15 samples.

Results

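Embryos of the green sea turtle, Chelonia mydas, kept for 36 h in hypoxia were compared with embryos kept for 36 h in air, gene by gene, by RNA sequencing. The comparison took every library that the labels place in either 36 h group, 5 in hypoxia and 5 in normoxia, which is 10 of the 15 libraries of the series. The other 5 libraries came from embryos removed within 1 h of laying and stood on neither side of the comparison. They entered the filter on low counts, the scaling and the estimate of the spread between libraries. Eggs of the normoxia group lay in sand and air, with oxygen near 159 mmHg. Eggs of the hypoxia group were sealed in nitrogen bags, below 8 mmHg, and buried in sand. Both groups were held at 26 to 28 °C, and the labels name no allele or further agent for either. No female or clutch is named for any egg, so a p-value here speaks of the spread among these samples alone, which may be technical. In bulk RNA of whole embryos, fewer cells of a type and less RNA per cell cannot be told apart, and this holds for every gene below.

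Sea turtle embryos stop developing inside the oviduct, where oxygen is low, and resume once the egg meets air. The hypoxia-inducible factors, HIF, are transcription factors whose alpha subunits are marked for destruction by oxygen-using prolyl hydroxylases, so they act when oxygen is scarce and switch on genes of glycolysis, blood vessel growth and the hydroxylases themselves. Cells short of oxygen or amino acids, or with misfolded protein in the endoplasmic reticulum, also slow protein synthesis and raise the transcription factor ATF4, whose targets make and import amino acids.

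Normoxia libraries held 18.3 to 26.8 M counts and hypoxia libraries 17.6 to 20.8 M. The composition of the libraries differed between the groups. The 10 most counted genes took 4.09 to 5.07% of the counts in normoxia and 8.56 to 11.4% in hypoxia (exact two-sided permutation test, p = 0.00794, the smallest p that 5 libraries against 5 allow, adjusted p = 0.0397 over 5 library measures). The TMM factors that correct for composition lay between 1.03 and 1.14 in normoxia and between 0.785 and 0.904 in hypoxia. Values below are CPM, counts scaled to a common total per library, listed from replicate 1 to replicate 5, and where 2 means are set against each other the normoxia mean comes first. Hypoxia libraries also spread more, with a biological coefficient of variation of 0.421 against 0.291 in normoxia. The pluripotency and epiblast markers of an early embryo were present in every library, with a summed level of 830.2 to 1367 CPM in normoxia and 1010 to 1925 CPM in hypoxia. Markers of yolk tissue varied within both groups, from 144 to 1504 CPM in normoxia and from 137 to 938 CPM in hypoxia. Hypoxia replicate 3 held the highest sum of yolk, red cell and leukocyte markers of its group and stood farthest from the others on the second principal component. Where leaving it out ended a call or moved a printed fold change by over 1.5 times, the value without it follows. Some normoxia samples carry neighbouring numbers in the labels. Whether these share a clutch is not given, and if they did, 3 and not 5 normoxia samples would be independent.

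Of 23730 named genes, 16639 had enough counts for edgeR's quasi-likelihood test, and 8123 of these (48.8%) passed a Benjamini-Hochberg adjusted p of 0.05. Higher in hypoxia were 4268 genes (25.7%) and lower were 3855 (23.2%). At least 2-fold higher were 2552 genes (15.3%) and at least 2-fold lower 2131 (12.8%). At least 4-fold higher were 806 genes (4.84%) and at least 4-fold lower 685 (4.12%). At least 8-fold higher were 244 genes (1.47%) and at least 8-fold lower 210 (1.26%). Scaling by total counts alone called 2674 genes higher and 5600 lower, with the median log2 fold change over all genes at -0.26 in place of 0.06, a shift of -0.32. Changes are therefore given relative to the composition scaling, and the other count stands beside each gene list whose balance turns or whose count moves by 1.5 times or more. The first principal component of the 10 libraries held 54.7% of the variance and ran from -78.6 to -71.1 in normoxia and from 53.2 to 96.7 in hypoxia. The second held 12.9% and spread the hypoxia libraries from -79.8 in replicate 3 to 57.5 in replicate 5.

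**Figure D1:**
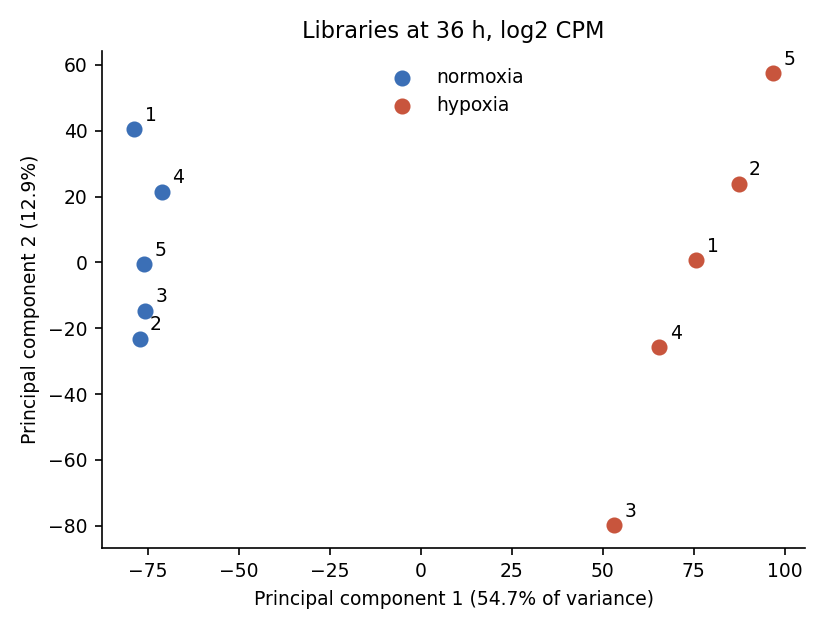
First and second principal components of log2 CPM in the 10 libraries at 36 h, 1 point per library, numbered by replicate. Normoxia libraries lie between -78.6 and -71.1 on the first axis and hypoxia libraries between 53.2 and 96.7, and the hypoxia libraries are spread along the second axis.

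The largest rises were picked among called genes with a symbol, with at least 20 counts on average in the higher group and no overlap. Their separation and passing p were thus set by the choice, which holds for EGLN3 and ATF3 below as well. The largest of these rises belonged to C10H15orf48, whose mammalian counterpart encodes a small mitochondrial protein related to the complex IV subunit NDUFA4. C10H15orf48 measured 0, 0.193, 0.657, 0.177 and 0.286 CPM in normoxia and 35.2, 36.001, 33.7, 49.6 and 33.2 CPM in hypoxia. It was near the floor in every normoxia library and well above it in every hypoxia library, with a log2 fold change of 7.07 ± 0.65 (SE, n = 5 and 5, edgeR adjusted p = 2.32e-07). Without normoxia replicate 3 this value was 7.77. ANKRD37, an ankyrin repeat protein induced by HIF in human cells, measured 3.18, 2.59, 5.33, 7.22 and 8.67 CPM in normoxia and 381, 353, 631, 683 and 474 CPM in hypoxia. The lowest hypoxia library of ANKRD37 stood far above the highest normoxia library. DDIT4, also called REDD1, which shuts down the growth kinase complex mTORC1 in low oxygen, measured 38.2, 47.97, 58.2, 56.5 and 41.3 CPM in normoxia and 2811, 2294, 2302, 2365 and 3016 CPM in hypoxia. Its log2 fold change was 5.72 ± 0.28 (SE, n = 5 and 5, edgeR adjusted p = 1.64e-10), and the groups did not overlap.

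Other large rises joined stress, metabolic and signalling genes. STC2, a secreted stanniocalcin, went from 2.12 to 138 CPM and AK5, an adenylate kinase that buffers cellular ATP, from 1.28 to 66.2 CPM. CA9, a carbonic anhydrase that regulates pH outside the cell and a classical HIF target, went from 1.17 to 46.1 CPM, and the transcriptional repressor BHLHE41 from 1.28 to 49.4 CPM. ZAR1, known from mice as a maternal factor of the oocyte-to-embryo transition, went from 0.299 to 13.3 CPM. FBXO40, a muscle F-box protein in mice, went from 0.0736 to 6.20 CPM with an SD of 4.49 CPM in hypoxia, and its log2 fold change of 6.35 became 6.96 and 7.004 without normoxia replicate 4 or 5. The neuronal adhesion gene DSCAM had 3 counts over all normoxia libraries and 103 over all hypoxia libraries, a ratio of 49.4 (95% counting interval 16.5 to 244). Floors and counting intervals cover counting error only.

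The largest falls, picked by the same rule, were in genes with low levels in hypoxia. Some had no count there, while SGK1 had counts in every hypoxia library. Normoxia levels differed too, from 2.001 to 4.67 CPM for ATP12A and from 105 to 161 CPM for SGK1. A fall or rise here is a difference from normoxia at 36 h, not a change over time. In freshly laid embryos, with no test, MSGN1 had no count, ATP12A 0 to 0.413 CPM and SGK1 5.21 to 12.9 CPM. Their separation and passing p were again set by the choice. MSGN1, the transcription factor that sets presomitic mesoderm fate, measured 22.7, 30.8, 28.3, 9.62 and 6.10 CPM in normoxia and 0, 0, 0.0631, 0 and 0 CPM in hypoxia. All 2433 normoxia counts faced 1 count in hypoxia, a ratio of 1689 (95% counting interval 303 to 66753). That count lay in replicate 3, and without it the fitted log2 fold change, which then depends on the prior count, went from -10.04 to -11.60. ATP12A, the catalytic subunit of a proton and potassium pump, measured 3.42, 4.21, 4.67, 3.72 and 2.001 CPM in normoxia and 0, 0, 0, 0 and 0 CPM in hypoxia. No hypoxia library held a count, so with 3 counts taken as the floor for the group the gene was at least 102-fold lower. SGK1, a kinase that raises epithelial sodium transport, measured 107, 105, 161, 132 and 146 CPM in normoxia and 1.56, 2.19, 3.97, 3.10 and 0.993 CPM in hypoxia. The groups were far apart, with a log2 fold change of -5.78 ± 0.34 (SE, n = 5 and 5, edgeR adjusted p = 1.94e-09).

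Several more of the largest falls encode transporters, junctions and epithelial regulators. GCM1, a transcription factor of the placenta in mammals, had 108 counts in normoxia and none in hypoxia, at least 24.997-fold lower over the same floor. Each of ZNF750, a regulator of epidermal differentiation, ATP6V1G3, a subunit of the vacuolar proton pump, and CLDN2, a tight junction claudin, had 1 count over the 5 hypoxia libraries, with means of 2.50, 1.67 and 0.926 CPM in normoxia. Without hypoxia replicate 3, which held the count of ZNF750 and of CLDN2, their fitted log2 fold changes went from -7.08 to -8.63 and from -5.65 to -7.20. KRT23, an epithelial keratin, had 2 counts in hypoxia and 1.98 CPM in normoxia. KCNJ16, a potassium channel, went from 35.6 to 0.906 CPM, SPP2, a secreted phosphoprotein, from 12.2 to 0.148 CPM, and COL13A1, a transmembrane collagen, from 5.79 to 0.111 CPM. Without hypoxia replicate 3 the log2 fold changes of these last genes moved from -5.30 to -8.13, from -6.32 to -8.41 and from -5.64 to -6.45. KCNJ16 and SPP2 also differed widely between normoxia libraries, in which the yolk markers varied too. Whether yolk tissue has a part in them was not tested. RIPPLY1, which sets somite boundaries, went from 18.9 to 0.386 CPM.

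In the gene lists below, examples were members with the smallest adjusted p, most counted genes or genes of a fixed set, unless stated otherwise. For members picked by p, the small p was set by the choice, and the separation of the groups goes with it. This holds for KDM3A, ATP5MC3, HSPH1, RPL3 and RRM2, among others. The share of all tested genes without overlap is not given here. The oxygen sensing machinery changed in parts. Of 16 tested genes, 6 were higher in hypoxia (37.5%), 4 lower (25%) and 6 not called, against 25.7% higher and 23.2% lower over all genes. The share lower was thus near that over all genes. The median log2 fold change was -0.12 against 0.06 over all genes. With total counts the split was 6 higher and 9 lower. EGLN3, a prolyl hydroxylase that acts on HIF alpha subunits and is itself a HIF target, measured 10.7, 13.99, 17.9, 11.5 and 14.2 CPM in normoxia and 838, 713, 614, 762 and 699 CPM in hypoxia. Every hypoxia library exceeded every normoxia library, with a log2 fold change of 5.73 ± 0.21 (SE, n = 5 and 5, edgeR adjusted p = 1.28e-11). EGLN1, the main HIF hydroxylase, was 3.99-fold higher, and HIF3A, an alpha subunit that restrains the others, 3.16-fold higher. SIAH2, a ubiquitin ligase that destroys prolyl hydroxylases, went from 18.1 to 71.5 CPM. OS9, known mainly from the disposal of misfolded endoplasmic reticulum proteins, went from 85.7 to 376 CPM. HIF1A, the best known alpha subunit, measured 187, 139, 156, 147 and 146 CPM in normoxia and 89.04, 70.6, 132, 107 and 94.2 CPM in hypoxia. The highest hypoxia value was below the lowest normoxia value, and the fall of -0.65 ± 0.22 on the log2 scale passed the test (SE, n = 5 and 5, edgeR adjusted p = 0.0194). HIF1A lost the call without hypoxia replicate 2 or normoxia replicate 1 (adjusted p 0.0504 to 0.0547). CUL2, the scaffold of the ubiquitin ligase that removes hydroxylated HIF, went from 48.5 to 18.7 CPM.

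Known targets of HIF were mostly higher. Of 41 tested targets, 32 were higher, 29 of them at least 2-fold, against 25.7% of all genes, and 3 were lower. The median log2 fold change was 2.38. LDHA, which turns pyruvate into lactate and so lets glycolysis run without oxygen, measured 136, 153, 232, 171 and 248 CPM in normoxia and 5013, 5321, 3641, 6361 and 7862 CPM in hypoxia. The groups did not overlap and the fitted difference was 30.04-fold (log2 4.91 ± 0.24, SE, n = 5 and 5, edgeR adjusted p = 1.64e-10). VEGFA, the vascular growth factor, measured 10.5, 12.9, 14.2, 12.2 and 9.82 CPM in normoxia and 71.7, 62.8, 53.98, 47.5 and 73.3 CPM in hypoxia. Each hypoxia library of VEGFA stood above all normoxia libraries. KDM3A, a histone H3 lysine demethylase and HIF target, measured 62.2, 37.2, 52.8, 53.3 and 44.9 CPM in normoxia and 617, 701, 664, 885 and 810.3 CPM in hypoxia, again with no overlap. MXI1, an antagonist of MYC, was 8.32-fold higher and the demethylase KDM4B 8.31-fold higher. PDK1, a kinase that holds pyruvate back from the citrate cycle and a classical target, was not called. PDK1 measured 14.8, 10.8, 7.13, 9.93 and 11.2 CPM in normoxia and 8.27, 14.8, 2.33, 5.82 and 18.02 CPM in hypoxia, the groups overlapped, and its log2 fold change was -0.13 ± 0.46 (SE, n = 5 and 5, edgeR adjusted p = 0.839). The 3 targets lower in hypoxia, named after their values were seen, were PFKFB4, a regulator of glycolysis (57.3 against 28.8 CPM), the vessel constrictor EDN1 (18.3 against 4.30 CPM) and the transferrin receptor TFRC (134 against 72.3 CPM). Limma-voom did not call EDN1 (adjusted p = 0.0521).

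**Figure D2:**
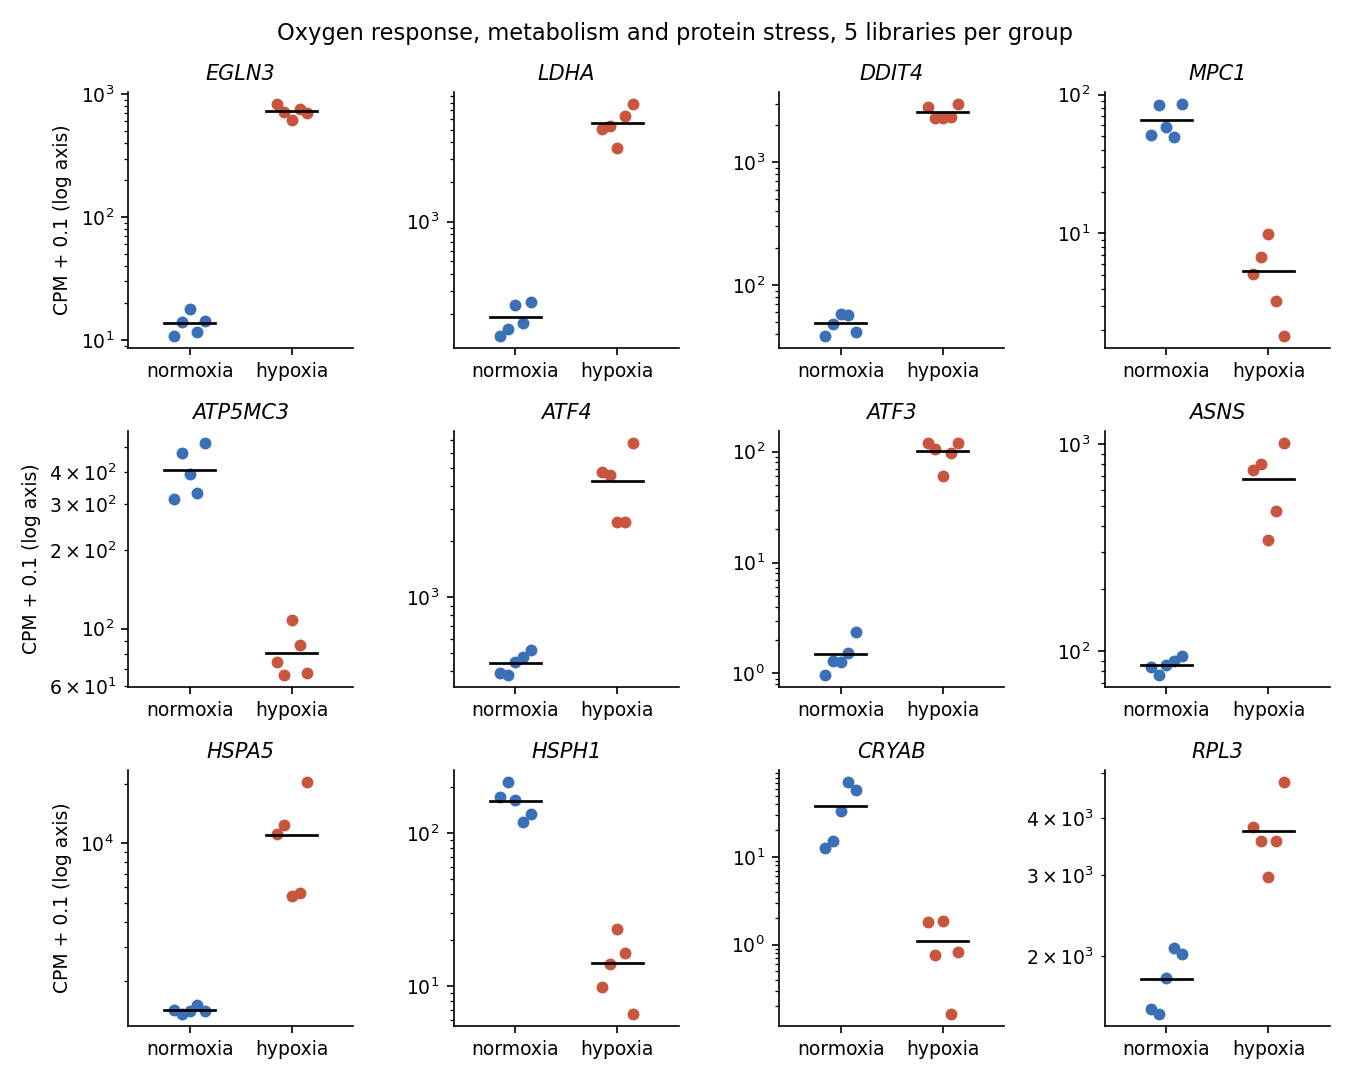
CPM plus 0.1 on a log axis in each library for 12 genes of oxygen response, metabolism and protein stress, with 1 point per library, the groups named below the axis and a bar at the group mean. The hypoxia points of EGLN3, LDHA, DDIT4, ATF4, ATF3, ASNS, HSPA5 and RPL3 all lie above the normoxia points, and those of MPC1, ATP5MC3, HSPH1 and CRYAB all lie below.

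Glycolysis genes were mostly higher, from glucose entry to lactate. Of 27 tested genes 19 were higher (70.4%) and 4 lower (14.8%), against 25.7% and 23.2% over all genes. The median log2 fold change was 1.27, and with total counts 14 were higher and 4 lower. The glucose transporter SLC2A1 stood at 159 ± 33.2 CPM in normoxia and 483 ± 123 CPM in hypoxia (SD, n = 5 each). Hexokinase HK1, which traps glucose in the cell, was 11.1-fold higher. PFKFB3, which makes the activator of phosphofructokinase, was 13.04-fold higher, the isomerase GPI 4.60-fold and the enolase ENO2 14.9-fold. ENO1, another enolase, was among the most counted genes. ENO1 measured 2708, 1771, 2329, 4447 and 4387 CPM in normoxia and 17822, 22495, 13855, 21596 and 29209 CPM in hypoxia, with no overlap, and its log2 fold change was 2.75 ± 0.26 (SE, n = 5 and 5, edgeR adjusted p = 2.74e-07). GAPDH was 3.03-fold higher.

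Both subunits of the mitochondrial pyruvate carrier were lower. MPC1, an obligate subunit of the mitochondrial pyruvate carrier, was chosen for display after its value was seen and measured 51.1, 84.3, 57.9, 49.6 and 85.9 CPM in normoxia and 5.03, 6.61, 9.77, 3.16 and 1.72 CPM in hypoxia. The highest hypoxia library lay below the lowest normoxia library, and the gene was 12.5-fold lower (edgeR adjusted p = 4.09e-07). Its partner MPC2 was 2.38-fold lower. The other members lower in the list were PFKFB4 and PFKFB2 (20.8 against 12.8 CPM), whose call was lost without hypoxia replicates 2, 4 or 5 or normoxia replicates 1, 2, 4 or 5 (adjusted p 0.0604 to 0.0957).

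Glycogen and gluconeogenesis genes were split, with 8 of 16 higher (50%) and 4 lower (25%), against 25.7% and 23.2% over all genes. With total counts 3 were higher and 5 lower. The number higher was 5 without hypoxia replicate 2 or normoxia replicate 3. GYS1, a glycogen synthase, was 5.81-fold higher and PCK2, the mitochondrial enzyme that makes phosphoenolpyruvate, 13.8-fold higher. The glucose-6-phosphate transporter SLC37A4 was 2.39-fold lower, as were PGM2 (2.09-fold) and UGP2 (1.54-fold), which makes UDP-glucose and lost its call without hypoxia replicates 1, 2 or 5 or normoxia replicate 3 (adjusted p 0.0563 to 0.0661).

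Of 23 genes of the citrate cycle and pyruvate dehydrogenase, 4 were higher (17.4%) and 9 lower (39.1%), against 25.7% and 23.2% over all genes. The median log2 fold change was -0.23, and with total counts 2 were higher and 15 lower, with a median of -0.55. The pyruvate dehydrogenase subunits DLAT and PDHB were 2.01-fold and 2.23-fold lower, the isocitrate dehydrogenase subunit IDH3A 2.38-fold lower, and the succinate ligase subunits SUCLG1 and SUCLA2 2.69-fold and 2.43-fold lower. Citrate synthase, CS, which opens the cycle, was 2.21-fold higher, and the other members higher were DLST, OGDH and ACO1. The number higher was 2 without hypoxia replicate 1 or normoxia replicates 4 or 5. OGDH lost its call without hypoxia replicate 1 or normoxia replicates 1, 4 or 5 (adjusted p 0.0534 to 0.11) and ACO1 without hypoxia replicates 1, 3 or 5 or normoxia replicates 2, 3, 4 or 5 (adjusted p 0.051 to 0.0976). Among 52 nuclear genes of oxidative phosphorylation 6 were higher (11.5%) and 25 lower (48.1%), with a median of -0.43. With total counts 1 were higher and 40 lower, with a median of -0.75, and under the composition scaling the number higher was 3 without hypoxia replicate 1. ATP5MC3, which encodes a subunit of the rotor ring of ATP synthase, measured 315, 472, 391, 331 and 518 CPM in normoxia and 74.2, 66.3, 108, 86.3 and 67.2 CPM in hypoxia. No hypoxia library reached a normoxia library, and the log2 fold change was -2.34 ± 0.18 (SE, n = 5 and 5, edgeR adjusted p = 2.96e-08). ATP5MC3 was picked for its small adjusted p, so its values do not speak for the list. The complex I genes NDUFB10, NDUFA5 and NDUFV2 were 2.62-fold, 2.08-fold and 1.93-fold lower. Mitochondrially encoded subunits were not analysed here.

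The amino acid response rose almost as a whole. Of 30 tested members 27 were higher (90%), 24 of them at least 2-fold, against 25.7% of all genes. The median log2 fold change was 2.85. ATF4, its central transcription factor, measured 394, 382, 447, 481 and 519.6 CPM in normoxia and 4750.4, 4532, 2534, 2541 and 6807 CPM in hypoxia. ATF3, a stress-induced partner, measured 0.867, 1.20, 1.18, 1.42 and 2.29 CPM in normoxia and 120.3, 106, 60.5, 97.7 and 119 CPM in hypoxia. ASNS, asparagine synthetase, measured 83.7, 76.5, 85.3, 88.9 and 94.3 CPM in normoxia and 752, 800.4, 344, 475 and 1017 CPM in hypoxia. None of these genes overlapped between groups, and their log2 fold changes were 3.25, 6.18 and 2.98 (edgeR adjusted p = 4.21e-08, 2.26e-10 and 3.09e-08). Hypoxia replicates 3 and 4 held the lowest ATF4 and ASNS values of their group, and replicate 5 the highest. CHAC1, a glutathione-degrading enzyme, was 31.9-fold higher, MTHFD2, a mitochondrial enzyme of folate metabolism, 14.4-fold higher and CEBPG, a partner of ATF4, 4.70-fold higher. The members lower in hypoxia, named after their values were seen, were the translation repressor EIF4EBP1 (60.9 against 32.97 CPM) and CTH, an enzyme of cysteine synthesis (53.3 against 33.1 CPM), whose call was lost without hypoxia replicates 2 or 4 or normoxia replicates 2, 3 or 5 (adjusted p 0.0563 to 0.0954). EIF4EBP1 lost its call with neighbouring normoxia samples summed (adjusted p = 0.0521).

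Amino acid supply followed in part. Of 21 transporters 9 were higher (42.9%) and 5 lower (23.8%), against 25.7% and 23.2% over all genes, so the share lower was near that over all genes. SLC3A2, the shared chain of several exchangers, was 4.55-fold higher and the glutamine carrier SLC38A2 3.29-fold higher, while SLC38A7, a lysosomal glutamine carrier, was 3.38-fold lower. The enzymes that load amino acids onto tRNA were higher in 13 of 20 cases (65%) and lower in 1 (5%), with a median log2 fold change of 0.75. With total counts 8 were higher and 4 lower. QARS1, EPRS1, NARS1 and CARS1 were 3.30-fold, 3.16-fold, 3.03-fold and 2.84-fold higher. FARSB was the 1 member lower in hypoxia (50.6 against 29.3 CPM), and the number lower was 2 without hypoxia replicate 5.

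The unfolded protein response of the endoplasmic reticulum was higher in 23 of 30 members (76.7%) and lower in 1 (3.33%). Over all genes the shares were 25.7% and 23.2%. The median log2 fold change was 2.04. HSPA5, also called BiP, the main chaperone of that compartment, measured 1441, 1369, 1422, 1522 and 1426 CPM in normoxia and 11073, 12363, 5402, 5582 and 20446 CPM in hypoxia. The normoxia libraries lay close together, while the hypoxia libraries fell into low values in replicates 3 and 4 and higher values in the rest, all above normoxia. The log2 fold change was 2.93 ± 0.29 (SE, n = 5 and 5, edgeR adjusted p = 4.39e-07). HYOU1, a second chaperone there, was 14.1-fold higher. HERPUD1 and SYVN1, which act in the disposal of misfolded proteins, were 13.7-fold and 6.64-fold higher. The co-chaperone DNAJB9 was 6.71-fold higher and XBP1, a transcription factor of this response, 4.34-fold higher. The sensor kinase ERN1, also called IRE1, was the 1 member lower in hypoxia (13.9 against 6.16 CPM, named after its value was seen).

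Cytosolic and mitochondrial chaperones were more often lower than higher. Of 21 heat shock genes 6 were higher (28.6%) and 11 lower (52.4%), against 25.7% and 23.2% over all genes. The median log2 fold change was -0.58, and with total counts 3 were higher and 11 lower. HSPH1, a nucleotide exchange factor of HSP70, measured 174, 218, 164, 119 and 134 CPM in normoxia and 9.84, 13.9, 23.6, 16.4 and 6.49 CPM in hypoxia. Its groups did not overlap, and it was 11.5-fold lower (log2 -3.53 ± 0.28, SE, n = 5 and 5, edgeR adjusted p = 4.54e-08). The related HSPA4L was 19.4-fold lower, the HSP90 activator AHSA1 7.84-fold lower, and the HSP70 partner DNAJA1 3.61-fold lower. HSPA8, the constitutive HSP70, and the mitochondrial chaperonin HSPD1 were 2.58-fold and 2.57-fold lower. CRYAB, a small heat shock protein chosen after its value was seen, measured 12.5, 14.9, 33.6, 72.01 and 57.5 CPM in normoxia and 1.74, 0.656, 1.77, 0.0620 and 0.729 CPM in hypoxia, with no overlap. The cytosolic HSP90 genes went opposite ways. HSP90AB1 was 2.24-fold higher, and HSP90AA1, also chosen after its value was seen, was 6.56-fold lower. Without hypoxia replicate 3 the log2 fold change of HSP90AA1 was -3.33 in place of -2.71. Counting kept reads above a mapping quality that STAR gives only to reads with a single place in the genome, so levels of genes with near-identical copies are uncertain.

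Genes of the ribosome split by compartment. Of 68 cytosolic ribosomal proteins 38 were higher (55.9%) and none lower, with a median log2 fold change of 0.43. With total counts 7 were higher and none lower, so most of these calls rest on the composition scaling. RPL3, a large subunit protein, measured 1538, 1499.7, 1796, 2091 and 2019.8 CPM in normoxia and 3819, 3559, 2978, 3565 and 4794 CPM in hypoxia. The groups did not overlap, and RPL3 was 2.09-fold higher (edgeR adjusted p = 2.56e-05), as was RPL4 (2.17-fold). The elongation factors EEF1A1 and EEF2 were 2.09-fold and 3.36-fold higher. Among 33 ribosome biogenesis genes 9 were higher (27.3%) and 15 lower (45.5%), against 25.7% and 23.2% over all genes. With total counts 6 were higher and 19 lower. The nucleolar phosphoprotein NOLC1 and the small subunit processing factor UTP15 were 4.29-fold and 3.02-fold lower, and WDR12, a large subunit assembly factor, 2.56-fold higher. Of 69 mitochondrial ribosomal proteins 7 were higher (10.1%) and 32 lower (46.4%), with a median of -0.31. With total counts 5 were higher and 49 lower, with a median of -0.64. MRPL18 was 4.65-fold lower and MRPS26 3.12-fold lower. The proteasome, which degrades ubiquitin-tagged proteins, was lower in 17 of 31 subunits (54.8%) with a median of -0.53. The core subunits PSMA5 and PSMA2 were 4.56-fold and 3.38-fold lower. PSMD3 was the 1 subunit higher (188 against 272 CPM), and with total counts no subunit was and 24 were lower.

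**Figure D3:**
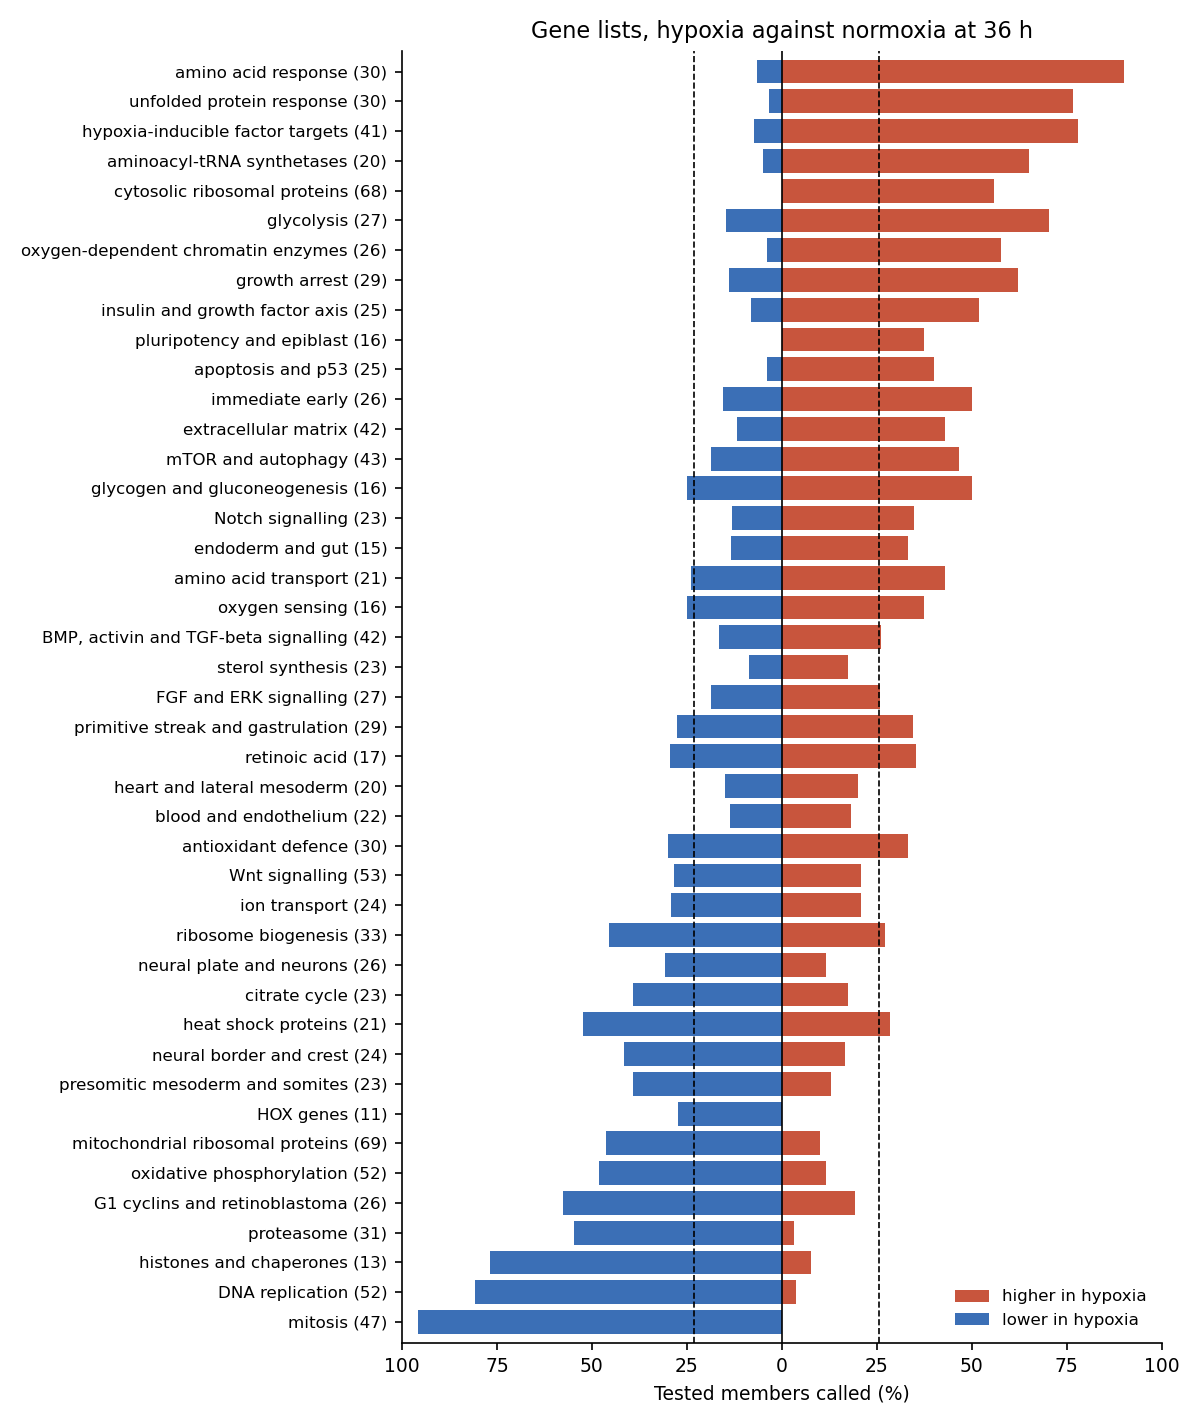
Share of the tested members of each gene list that were called higher in hypoxia (bars to the right) and lower (bars to the left), in percent, with the number of tested members beside each name. Dashed lines mark the shares over all 16639 genes, 25.7% higher and 23.2% lower. The amino acid response and HIF targets reach farthest right, and mitosis and DNA replication farthest left.

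Cell division genes were lower nearly throughout. Of 52 DNA replication genes 42 were lower and 2 higher, against 23.2% lower over all genes, with a median log2 fold change of -1.05. MCM2, a subunit of the replicative helicase, measured 209, 182, 153, 265 and 193 CPM in normoxia and 25.7, 25.2, 17.97, 13.01 and 30.2 CPM in hypoxia. RRM2, the subunit of ribonucleotide reductase that limits the supply of DNA precursors, measured 352, 167, 237, 267 and 267 CPM in normoxia and 9.84, 24.2, 7.13, 14.3 and 16.3 CPM in hypoxia. The groups were apart for both, with log2 fold changes of -3.16 ± 0.24 and -4.17 ± 0.30 (SE, n = 5 and 5, edgeR adjusted p = 2.49e-08 and 1.61e-08). The sliding clamp PCNA was 3.43-fold lower, the helicase factor CDC45 7.48-fold lower, the helicase subunit GINS2 3.36-fold lower and UHRF1, which carries DNA methylation through replication, 5.82-fold lower. The members higher in hypoxia were TIMELESS, a replication fork protein (22.6 against 76.4 CPM), and the maintenance DNA methyltransferase DNMT1 (196 against 377 CPM), both named after their values were seen.

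Mitosis genes were lower in 45 of 47 cases (95.7%) and higher in none, against 23.2% lower over all genes. The median log2 fold change was -1.82. CCNB1, the cyclin that drives entry into mitosis, measured 128, 160.4, 162, 161 and 135 CPM in normoxia and 20.7, 18.4, 51.02, 59.7 and 22.8 CPM in hypoxia. Hypoxia replicates 3 and 4 held the highest hypoxia values, still below every normoxia library, and the log2 fold change was -2.11 ± 0.29 (SE, n = 5 and 5, edgeR adjusted p = 1.25e-05). Its kinase CDK1 was 5.13-fold lower, CCNB2 5.23-fold lower, the cytokinesis motor KIF23 6.92-fold lower and the condensin subunit NCAPH 3.60-fold lower. Of 13 chromatin assembly and packaging genes 10 were lower (76.9%) and 1 higher (7.69%). Among those lower were HMGB3 (7.14-fold) and HMGB1 (4.47-fold), which bend DNA. SSRP1, a histone chaperone, was the 1 higher (263 against 358 CPM). With total counts none was higher, and SSRP1 was not called (log2 0.12, adjusted p = 0.434).

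Regulators of the G1 phase followed. Of 26 tested members 15 were lower (57.7%) and 5 higher (19.2%), against 23.2% and 25.7% over all genes, with a median of -1.03. CCNE2, a cyclin of S phase entry, was 13.6-fold lower, E2F1, which drives S phase genes, 5.68-fold lower and CCND1, a cyclin that answers growth signals, 3.19-fold lower. The members higher were CCNG1, a target of p53 (64.7 against 157 CPM), CCND2, CDK4, CDK6 and E2F5, and with total counts 1 member was higher. The number higher was 2 without normoxia replicate 5 and 3 without hypoxia replicate 5 or normoxia replicate 1. CDK4 lost its call without hypoxia replicates 1 or 3 or normoxia replicates 1 or 5 (adjusted p 0.0541 to 0.0768), CDK6 without hypoxia replicate 5 or normoxia replicates 1, 3 or 5 (adjusted p 0.0529 to 0.0949) and E2F5 without hypoxia replicates 2, 4 or 5 or normoxia replicates 2, 4 or 5 (adjusted p 0.0513 to 0.0647).

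Growth arrest genes were mostly higher. Of 29 growth arrest genes 18 were higher (62.1%) and 4 lower (13.8%), against 25.7% and 23.2% over all genes. The median log2 fold change was 0.72. CDKN1A, the p21 inhibitor of cyclin-dependent kinases, measured 8.72, 8.08, 6.61, 7.002 and 16.7 CPM in normoxia and 169.8, 114, 55.6, 62.2 and 139 CPM in hypoxia. Every hypoxia library was above every normoxia library (log2 3.52 ± 0.35, SE, n = 5 and 5, edgeR adjusted p = 5.21e-07). CDKN1B, the p27 inhibitor, was 1.70-fold higher, a call lost with total counts (adjusted p = 0.105). KLF10 and MXD4, repressors that oppose proliferation, were 6.79-fold and 4.42-fold higher, and TSC22D3, a glucocorticoid-induced leucine zipper, 3.82-fold higher. The members lower were CDKN2D (20.8 against 4.92 CPM), GADD45A (32.7 against 10.5 CPM), TOB1 (17.5 against 8.54 CPM) and BTG2 (39.3 against 15.4 CPM), named after their values were seen.

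Immediate early genes, which respond to signals within minutes, were higher in 13 of 26 cases (50%) and lower in 4 (15.4%). Over all genes the shares were 25.7% and 23.2%. The AP-1 members JUNB and FOSL2 were 7.75-fold and 7.53-fold higher and the transcription factor MAFF 6.41-fold higher. MYC, a driver of growth and ribosome production, measured 40.95, 37.3, 37.7, 47.1 and 48.98 CPM in normoxia and 8.04, 7.87, 14.3, 16.7 and 10.5 CPM in hypoxia. Its groups did not overlap, and it was 3.70-fold lower (edgeR adjusted p = 1.44e-05). Of 25 genes of apoptosis and p53 10 were higher (40%) and 1 lower (4%), and with total counts 6 were higher and 9 lower. The members named include opposing roles. The survival factors BCL2L1 and MCL1 were 3.34-fold and 2.21-fold higher and the initiator caspase CASP8 2.47-fold higher. TIGAR, a p53 target that slows glycolysis, was the 1 member lower (24.3 against 7.40 CPM), and the number lower was 2 without hypoxia replicates 3, 4 or 5 and 4 without hypoxia replicate 1.

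The mTOR and autophagy list had 20 of 43 members higher (46.5%) and 8 lower (18.6%), against 25.7% and 23.2% over all genes. With total counts 11 were higher and 11 lower. The members higher included TFEB, the master regulator of lysosome genes (2.93 against 23.9 CPM), ULK1, the kinase that starts autophagy (21.03 against 131 CPM), and WIPI1, which helps form autophagosomes (43.8 against 346 CPM). MTOR itself was 1.69-fold lower and its effector kinase RPS6KB1 1.89-fold lower, both named after their values were seen. In the insulin and growth factor axis 13 of 25 genes were higher (52%) and 2 lower (8%), and with total counts 9 and 3. IGFBP1, a secreted protein that binds insulin-like growth factors, measured 6.07, 2.71, 3.70, 5.23 and 8.67 CPM in normoxia and 62.6, 44.7, 82.99, 93.2 and 50.9 CPM in hypoxia. The groups did not overlap (log2 3.67 ± 0.30, SE, n = 5 and 5, edgeR adjusted p = 6.83e-08). IGFBP3 and IGFBP6, of the same family, were 16.3-fold and 24.5-fold higher. The growth factor IGF2 was not called, at 7.21 ± 2.20 CPM in normoxia and 8.07 ± 2.76 CPM in hypoxia (SD, n = 5 each). Those lower were AKT1 (103 against 59.9 CPM) and PIK3R1 (36.04 against 20.5 CPM), parts of the signalling chain below the receptors, and PIK3R1 lost its call without normoxia replicate 2 (adjusted p = 0.0514).

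Enzymes that need oxygen to act on chromatin were higher in 15 of 26 cases (57.7%) and lower in 1 (3.85%). The median log2 fold change was 0.97, and with total counts 13 were higher and 6 lower. Besides KDM3A and KDM4B, TET3, which oxidises methylated cytosine, was 5.66-fold higher and KDM6B, which removes a repressive mark from histone H3, 7.02-fold higher. KDM4A was the 1 member lower (268 against 224 CPM), a call lost without hypoxia replicates 1, 2, 3 or 4 or normoxia replicates 2, 3 or 5 (adjusted p 0.0621 to 0.14). Antioxidant genes were divided, 10 of 30 higher and 9 lower, and with total counts 6 and 13. The shares were 33.3% higher and 30% lower, against 25.7% and 23.2% over all genes. HMOX1, the haem-degrading enzyme, was 19.01-fold higher, and the mitochondrial peroxiredoxin PRDX3 and thioredoxin TXN were 3.44-fold and 2.48-fold lower. Of 23 sterol genes 4 were higher (17.4%) and 2 lower (8.70%), both below the shares over all genes. With total counts these were 2 and 2, and the number higher was 8 without hypoxia replicate 1. SREBF1, a regulator of lipid synthesis, was 6.90-fold higher, and STARD4, a sterol carrier, went from 6.89 to 0.599 CPM with a log2 fold change of -3.51, or -4.45 without hypoxia replicate 3.

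**Figure D4:**
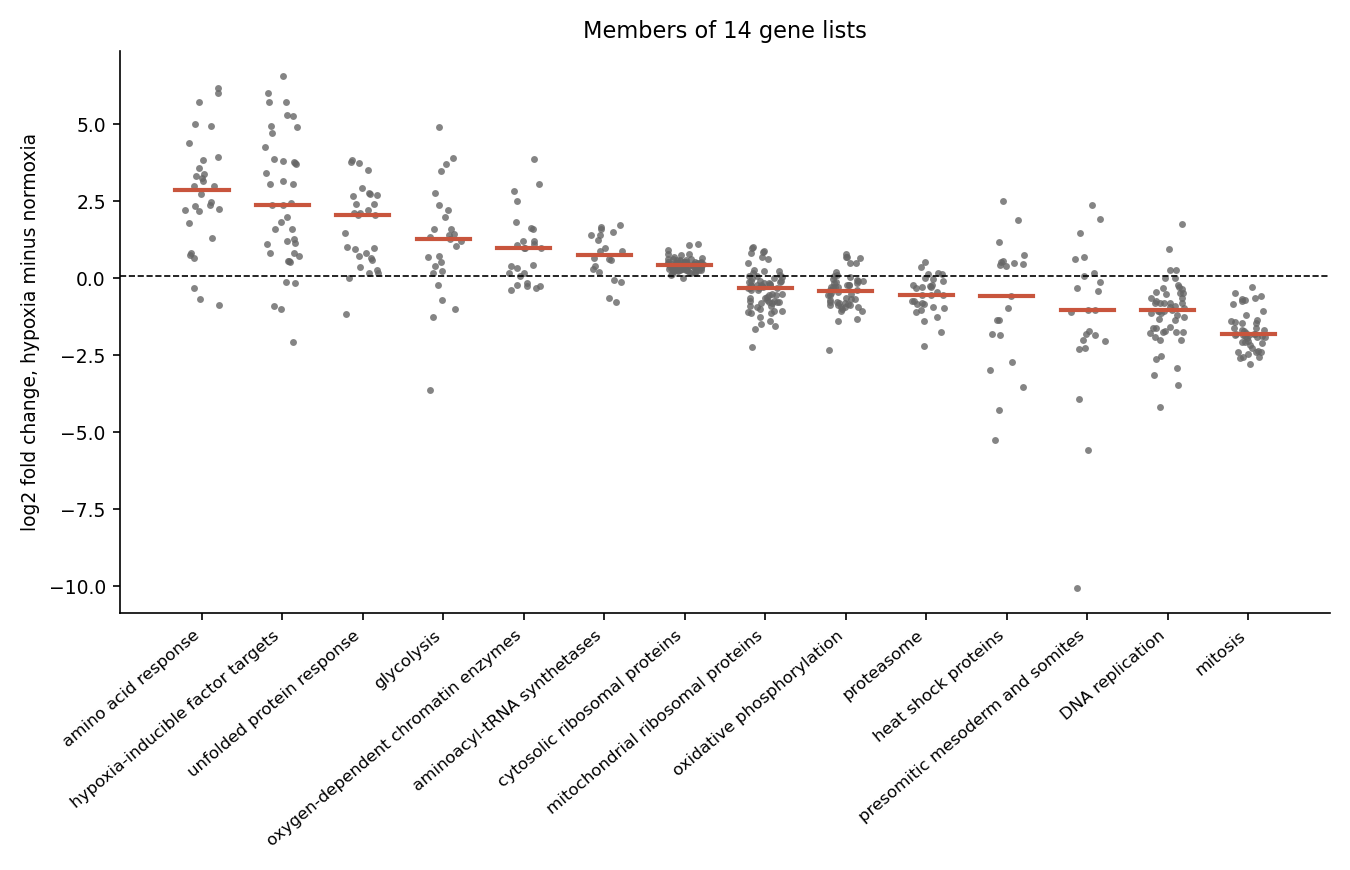
Log2 fold change, hypoxia minus normoxia, of every tested member of 14 gene lists, 1 point per gene, with a bar at the list median and a dashed line at the median of all genes, 0.06. Points of the amino acid response, HIF targets and the unfolded protein response lie mostly above the line, and those of mitosis and DNA replication mostly below.

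Developmental genes showed no common direction. Of 16 pluripotency and epiblast genes 6 were higher in hypoxia than in normoxia (37.5%) and none lower, against 25.7% and 23.2% over all genes. With total counts 6 were higher and 2 lower. The number lower was 1 without hypoxia replicate 5. POU5F1, a core pluripotency factor, measured 5.20, 1.12, 1.83, 6.07 and 3.91 CPM in normoxia and 7.06, 11.7, 18.6, 21.1 and 10.8 CPM in hypoxia. The groups did not overlap (log2 1.94 ± 0.40, SE, n = 5 and 5, edgeR adjusted p = 0.000682). KLF5 was 3.15-fold higher, the methyltransferase DNMT3A 2.48-fold higher and SOX3, a factor of epiblast and neural plate, 1.86-fold higher. PRDM14, a pluripotency and germ cell regulator, went from 3.81 to 14.1 CPM, and its groups overlapped through hypoxia replicate 1. SOX2, which pairs with POU5F1, was not called, with 5.57 ± 2.35 CPM in normoxia and 4.36 ± 1.87 CPM in hypoxia (SD, n = 5 each, edgeR adjusted p = 0.429). NANOG was not analysed here.

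Genes of the primitive streak and gastrulation went both ways, 10 of 29 higher and 8 lower, and with total counts 5 and 8. The shares were 34.5% higher and 27.6% lower, against 25.7% and 23.2% over all genes. The number higher was 6 without hypoxia replicates 3 or 4. FOXH1, the partner of the SMAD proteins in Nodal signalling, measured 7.47, 5.41, 9.41, 18.7 and 14.01 CPM in normoxia and 67.7, 127, 149.7, 146 and 73.7 CPM in hypoxia. EOMES, which acts early in mesoderm and endoderm and was chosen for display after its value was seen, measured 45.4, 7.61, 17.2, 35.1 and 35.3 CPM in normoxia and 165, 97.4, 127, 185 and 104 CPM in hypoxia. Both were higher in every hypoxia library than in any normoxia library, by 10.3-fold and 4.83-fold (edgeR adjusted p = 1.17e-06 and 0.00085). The signal NODAL was called at 0.0897 ± 0.0858 CPM in normoxia and 1.65 ± 2.41 CPM in hypoxia (SD, n = 5 each, log2 4.16), but its level came mainly from hypoxia replicates 3 and 4. Without replicate 3 the log2 fold change was 2.91, without normoxia replicate 5 it was 4.83, and limma-voom did not call it (1.98, adjusted p = 0.312). GATA4, a factor of heart and endoderm, was 2.30-fold higher, a call lost without hypoxia replicates 3 or 4 or normoxia replicate 1 (adjusted p 0.0532 to 0.122) and with total counts (adjusted p = 0.0848).

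Several later genes of the streak and tail were lower. TBXT, or brachyury, the marker of the streak and notochord, measured 72.03, 58.8, 46.8, 54.2 and 68.8 CPM in normoxia and 5.03, 4.86, 12.4, 15.3 and 1.85 CPM in hypoxia. SNAI2, which drives the loss of epithelial contacts, measured 30.9, 45.8, 31.4, 39.7 and 29.3 CPM in normoxia and 1.68, 0.0546, 2.90, 1.36 and 0.199 CPM in hypoxia. Neither overlapped between groups, with log2 fold changes of -2.93 ± 0.51 and -4.83 ± 0.69 (SE, n = 5 and 5, edgeR adjusted p = 0.000145 and 2.15e-05). SP5, a target of Wnt signals, and the posterior factor CDX4 were 11.04-fold and 7.39-fold lower. CDX2, of the same family as CDX4, was 2.27-fold lower, a call lost with neighbouring normoxia samples summed (adjusted p = 0.0681). MIXL1, a streak gene, was not called at 15.1 ± 6.82 CPM in normoxia and 9.27 ± 5.76 CPM in hypoxia (SD, n = 5 each), though it passed without hypoxia replicate 4 (adjusted p = 0.0461).

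Genes of segmentation and of ectodermal patterning were next. Of 23 genes of presomitic mesoderm and somites 9 were lower and 3 higher, with a median log2 fold change of -1.05. Besides MSGN1 and RIPPLY1, the forkhead factor FOXC2 was 15.2-fold lower and ALDH1A2, which makes retinoic acid, 3.27-fold lower. Those higher were the protocadherin PCDH8 (12.1 against 45.6 CPM), the muscle factor MYOG (2.80 against 14.5 CPM) and HEY2, a Notch target (7.97 against 21.8 CPM). Of 24 neural border and crest genes 10 were lower (41.7%) and 4 higher (16.7%). TWIST1, a mesenchymal factor, was 18.2-fold lower. The crest genes SOX10 (0.224 against 1.93 CPM) and TFAP2B (0.220 against 2.27 CPM) went the other way, along with PRDM1 and TFAP2A. The log2 fold change of TFAP2B was 3.31, and 2.60 without hypoxia replicate 5, and its call was lost with neighbouring normoxia samples summed (adjusted p = 0.0599). Of 26 neural genes 8 were lower (30.8%) and 3 higher (11.5%), against 23.2% and 25.7% over all genes. RAX, which marks the eye field, was 27.4-fold higher. The patterning factor ZIC1 went from 3.91 to 0.118 CPM, and IRX2 was 4.10-fold lower. PAX6, a factor of eye and neural tube, was not called at 0.782 ± 0.422 CPM in normoxia and 2.79 ± 0.612 CPM in hypoxia (SD, n = 5 each, edgeR adjusted p = 0.0853), and limma-voom and the fit on 10 libraries alone did call it (adjusted p = 0.00577 and 0.00565). Of 11 HOX genes 3 were lower and none higher, with a median of -1.46. The share lower among those tested, 27.3%, is near the 23.2% over all genes, and with total counts 5 were lower. Only 11 of 39 HOX genes present passed the filter on low counts. Among the rest, untested, HOXB7 summed to 265 counts in normoxia and 5 in hypoxia, HOXB4 to 153 and 17 and HOXC5 to 91 and 5. HOXB13 (2 and 16) and HOXD13 (0 and 16) went the other way. How evenly these sums were spread over the libraries of a group is not given here. HOXD1 went from 17.5 to 1.29 CPM, a log2 fold change of -3.76 that was -4.57 without hypoxia replicate 4, and the others were HOXB2 (4.75 against 1.18 CPM) and HOXB3 (2.36 against 0.860 CPM). The number lower was 1 without normoxia replicates 2 or 3 and 7 without hypoxia replicate 3. HOXB2 lost its call without hypoxia replicates 1, 2, 4 or 5 or normoxia replicates 1, 2, 3 or 4 (adjusted p 0.0601 to 0.0972) and HOXB3 without hypoxia replicates 1, 2, 4 or 5 or normoxia replicates 2 or 3 (adjusted p 0.0629 to 0.157).

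**Figure D5:**
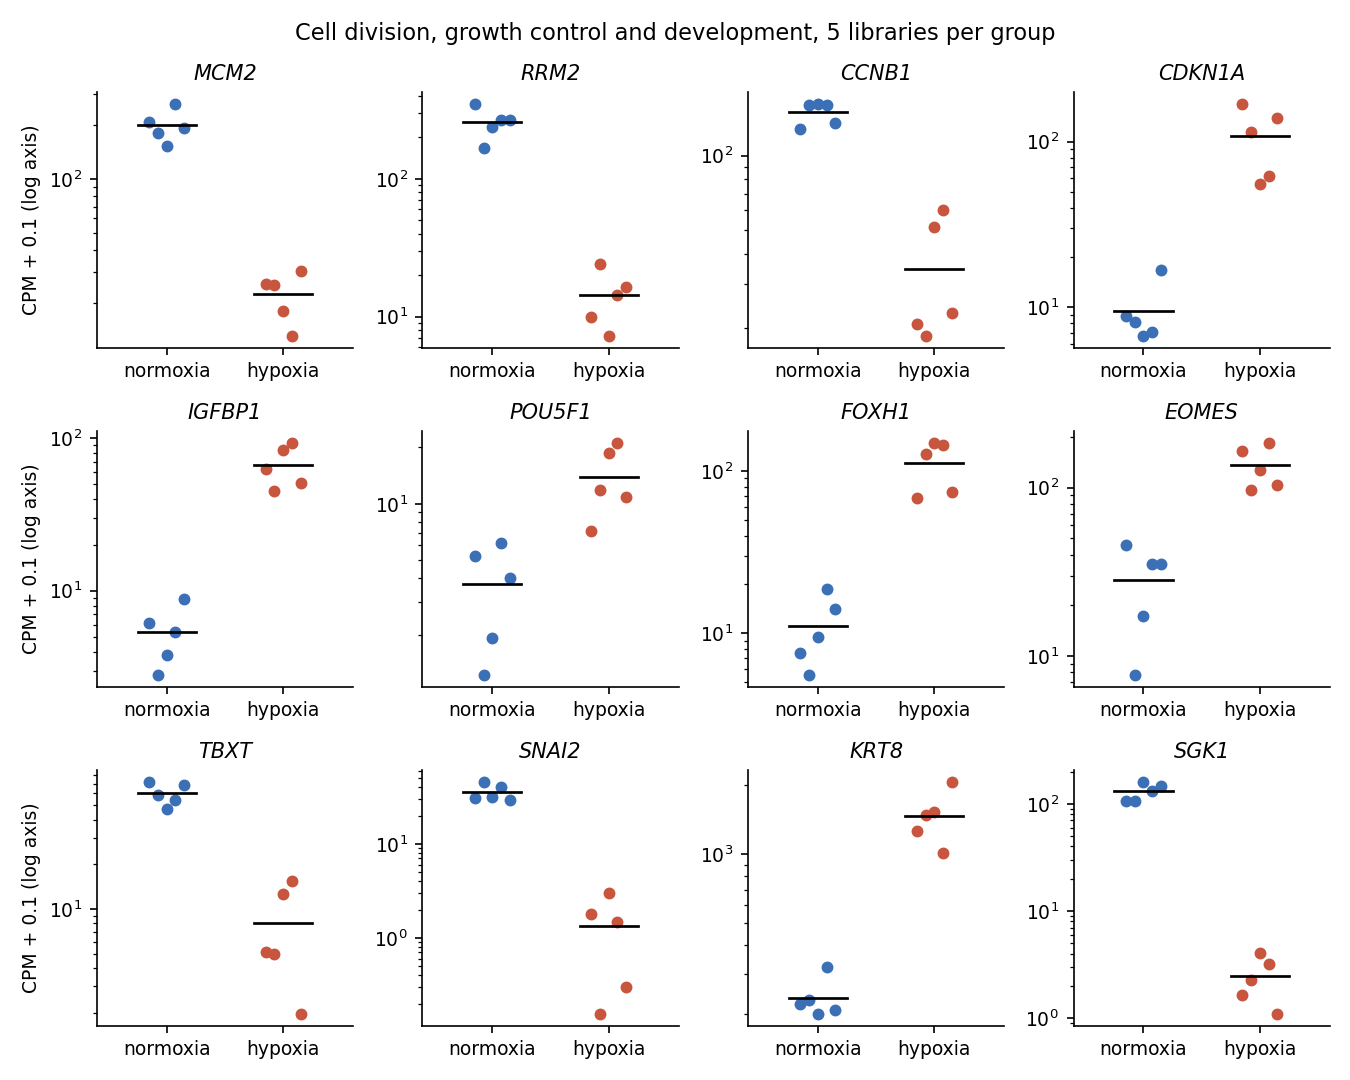
CPM plus 0.1 on a log axis in each library for 12 genes of cell division, growth control and development, with 1 point per library, the groups named below the axis and a bar at the group mean. The hypoxia points of CDKN1A, IGFBP1, POU5F1, FOXH1, EOMES and KRT8 all lie above the normoxia points, and those of MCM2, RRM2, CCNB1, TBXT, SNAI2 and SGK1 all lie below.

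Organ lists were split. For heart and lateral mesoderm 20% were higher and 15% lower, for endoderm 33.3% and 13.3% and for blood and vessels 18.2% and 13.6%. Over all genes the shares were 25.7% and 23.2%. Of 20 heart and lateral mesoderm genes 4 were higher and 3 lower (with total counts 1 and 4). The number higher was 2 without hypoxia replicates 3 or 4 or normoxia replicate 1, and the number lower 5 without hypoxia replicate 3. Of 15 endoderm genes 5 and 2 were higher and lower (with total counts 2 and 2). The number higher was 3 without hypoxia replicates 3 or 4 or normoxia replicate 1, and the number lower 0 without hypoxia replicates 1 or 5 or normoxia replicate 5 and 1 without hypoxia replicates 2 or 4 or normoxia replicate 2. FOXA3 and PDX1, factors of endoderm organs, went from 0.0873 to 3.75 CPM and from 0.126 to 2.97 CPM, and the log2 fold change of FOXA3, 5.23, was 6.58 without normoxia replicate 3. Among 22 blood and vessel genes 4 were higher and 3 lower (with total counts 3 and 6). Without hypoxia replicate 3 these were 2 and 7. The receptors of VEGFA went opposite ways. FLT1, which mainly traps the factor, was 3.72-fold higher, and KDR, which carries its signal, 4.75-fold lower (edgeR adjusted p = 0.000208 and 0.000682). MYB, a blood progenitor factor, was 4.38-fold lower.

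The shares called in the signalling lists were mostly near those over all genes. For the Wnt list 20.8% were higher and 28.3% lower, for BMP, activin and TGF-beta 26.2% and 16.7%, for FGF 25.9% and 18.5%, for Notch 34.8% and 13.04% and for retinoic acid 35.3% and 29.4%, against 25.7% and 23.2%. In the Wnt list 15 of 53 genes were lower and 11 higher (with total counts 20 and 4). The ligand WNT5B, the receptors FZD10 and FZD7 and the secreted inhibitor SFRP1 were 6.34-fold, 5.44-fold, 2.82-fold and 4.27-fold lower, and TCF7L1, a repressor of Wnt targets, 3.42-fold higher. In the BMP, activin and TGF-beta list 11 of 42 genes were higher and 7 lower (with total counts 6 and 12). SKI, which blocks SMAD action, was 3.93-fold higher, SMAD2 and SMAD4 1.74-fold and 1.78-fold higher, and the decoy receptor BAMBI 3.17-fold lower. In the FGF list 7 of 27 were higher and 5 lower (with total counts 7 and 8), with the feedback inhibitor SPRY2 3.59-fold higher. In the Notch list 8 of 23 were higher and 3 lower (with total counts 6 and 5), with the ligands JAG2 and DLL4 5.36-fold and 7.66-fold higher and JAG1 2.39-fold lower. Of 17 retinoic acid genes 6 were higher and 5 lower (with total counts 3 and 5). The enzymes that make the signal, RDH10 and ALDH1A2, were 2.80-fold and 3.27-fold lower, and the receptor RARG 3.02-fold higher.

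Matrix and membrane genes differed too. Of 42 extracellular matrix genes 18 were higher (42.9%) and 5 lower (11.9%), against 25.7% and 23.2% over all genes, with a median log2 fold change of 0.48. The basement membrane laminin LAMB1 was 2.46-fold higher, the cartilage collagen COL2A1 3.92-fold higher and the protease MMP9 4.17-fold higher. The members lower were FBN1 (13.2 against 5.23 CPM), FBN2, MMP15, NID1 and COL5A2. The number lower was 3 without hypoxia replicate 1 or normoxia replicate 2, with FBN2 lost without hypoxia replicate 1 or normoxia replicate 2 (adjusted p 0.0515 to 0.0599) and COL5A2 without hypoxia replicates 1, 2, 4 or 5 or normoxia replicates 1, 2 or 3 (adjusted p 0.0517 to 0.158). Of 24 ion transport genes 5 were higher (20.8%) and 7 lower (29.2%), against 25.7% and 23.2% over all genes. The chloride cotransporter SLC12A2 was 4.72-fold lower, and the epithelial sodium channel subunit SCNN1A 8.12-fold higher. SLC26A4, an anion exchanger, went from 0.349 to 12.8 CPM, and its log2 fold change of 5.17 was 3.54 without hypoxia replicate 1.

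Markers of other cell types were read beside these results. Of 15 tested yolk tissue markers 5 were lower in hypoxia (33.3%), 1 higher (6.67%) and 9 not called, against 23.2% lower and 25.7% higher over all genes. Their log2 fold changes ran from -4.18 to 2.38 with a median of -1.59, and with total counts 10 were lower. The number lower was 9 without hypoxia replicate 3 or normoxia replicate 4. FGA, a fibrinogen chain, measured 7.18, 184, 56.3, 8.07 and 57.99 CPM in normoxia and 1.56, 0.601, 9.84, 4.40 and 1.32 CPM in hypoxia. The groups overlapped, since normoxia replicates 1 and 4 were as low as hypoxia replicate 3, and its log2 fold change of -4.15 was -5.00 without hypoxia replicate 3 and -3.20 without normoxia replicate 2. APOB, the main protein of yolk and blood lipid particles, went from 81.6 to 7.31 CPM, and lost its call without normoxia replicate 2 (adjusted p = 0.0564). Without hypoxia replicate 3 the log2 fold change of APOB was -5.04 in place of -3.48. The uptake adaptor DAB2 and the fatty acid carrier FABP2 were 2.17-fold and 18.1-fold lower. The yolk markers named here are all lower, and the 1 member called higher, by at least 2-fold, is not among them. The sums of surface and extraembryonic ectoderm markers did not overlap, at 1716 to 2264 CPM in normoxia and 3985 to 6233 CPM in hypoxia. KRT8, a keratin of simple epithelia, measured 221, 231, 199.9, 319 and 209 CPM in normoxia and 1259.6, 1479.6, 1529, 1013 and 2073 CPM in hypoxia, with no overlap, and its partner KRT18 was 5.56-fold higher. Of the 13 ectoderm markers 5 were higher (38.5%) and 4 lower (30.8%), with total counts 4 and 6. Under the composition scaling the number lower was 2 without hypoxia replicate 1 or normoxia replicates 3 or 4. Their log2 fold changes ran from -6.02 to 2.64 with a median of 0.009, so the sums do not speak for every marker. TP63, the defining factor of stratified epithelium, was lower, at -2.61 on the log2 scale and -3.36 without hypoxia replicate 1.

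Red cell markers summed to 56.2 to 153 CPM in normoxia and 88.0 to 285 CPM in hypoxia, with 4 of 9 higher, or 2 with total counts, 1 without hypoxia replicate 3 and 2 without normoxia replicate 5. Leukocyte markers summed to 30.8 to 67.4 CPM and 22.4 to 63.2 CPM, with 1 of 11 higher and 1 lower, or 0 higher and 3 lower without hypoxia replicate 3 and likewise with total counts. Oocyte and germline markers summed to 112 to 210.1 CPM and 128 to 181 CPM, with 1 of 11 higher, or 2 without hypoxia replicate 3, and 1 lower. The shares were 9.09% higher and 9.09% lower for germline and for leukocyte markers, and 44.4% higher for red cell markers. Over all genes they were 25.7% higher and 23.2% lower. Markers of oviduct and shell gland summed to 10.01 to 154 CPM in normoxia and 4.11 to 11.9 CPM in hypoxia. Of 5 tested, 3 were lower (60%) and 1 was higher by at least 2-fold (20%). Most of the normoxia sum was CALB1, a calcium-binding protein of several epithelia, at 67.8 ± 61.5 CPM in normoxia and 1.78 ± 1.88 CPM in hypoxia (SD, n = 5 each), whose log2 fold change of -5.25 was -6.09 without hypoxia replicate 3. The part of cell type shares in the results above was not tested.

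Other choices of samples and tools ended further calls among the genes named. With neighbouring normoxia samples summed these were ACO1, CDK4, CDK6, CDX2, E2F5, EIF4EBP1, FBN2, GATA4, HOXB2, HOXB3, KDM4A, OGDH, PFKFB2, PIK3R1, TFAP2B and UGP2 (edgeR adjusted p 0.0517 to 0.147). With total counts they were ACO1, CCND2, CDK4, CDK6, CDKN1B, E2F5, GATA4, OGDH, PSMD3 and SSRP1 (edgeR adjusted p 0.0848 to 0.857). Limma-voom did not call COL5A2, CTH, EDN1, GATA4 and NODAL (adjusted p 0.0521 to 0.312). The fit on 10 libraries did not call ACO1, KDM4A and OGDH (edgeR adjusted p 0.0504 to 0.0728), and the fit without a filter on low counts did not call ACO1, HOXB3 and KDM4A (edgeR adjusted p 0.0577 to 0.0709). Median-ratio scaling did not call ACO1 (edgeR adjusted p = 0.0537). The column names carry an S number whose meaning the labels do not give. Libraries were split by it into those up to 11 and those higher. With this split as a covariate, calls were lost for CDK4, CDK6, COL5A2, CTH, GATA4, HIF1A, HOXB2, KDM4A, NODAL and PFKFB2 (edgeR adjusted p 0.0503 to 0.11). In the libraries of low S number, 2 in normoxia and 4 in hypoxia, they were lost for ACO1, APOB, CDK4, CDK6, CDKN1B, CDX2, COL5A2, CTH, EIF4EBP1, FARSB, FBN2, GATA4, HIF1A, HOXB2, HOXB3, IRX2, JAG1, KDM4A, MYOG, NODAL, OGDH, PFKFB4, PIK3R1, PSMD3, SSRP1, TFAP2B, TFRC and UGP2 (edgeR adjusted p 0.0547 to 0.558). Limma-voom also moved log2 fold changes, to -4.58 for APOB, -7.55 for KCNJ16, -5.04 for HOXD1, -5.74 for SNAI2 and 4.09 for SLC26A4. It gave smaller falls for MSGN1 (-8.81 in place of -10.04), ZNF750 (-6.01 in place of -7.08) and CLDN2 (-4.63 in place of -5.65). The same held for ATP12A (-6.88 in place of -9.14), GCM1 (-4.86 in place of -7.17) and ATP6V1G3 (-5.42 in place of -6.52). The covariate moved APOB to -4.30 and NODAL to 3.31, and the libraries of low S number gave 6.40 for FOXA3, 4.89 for NODAL, 3.71 for SLC26A4 and -3.37 for TP63. Summing neighbouring normoxia samples changed the number higher in glycogen and gluconeogenesis (5 in place of 8), citrate cycle (2 in place of 4), G1 cyclins and retinoblastoma (2 in place of 5), primitive streak and gastrulation (5 in place of 10), heart and lateral mesoderm (2 in place of 4), endoderm and gut (3 in place of 5), Wnt signalling (7 in place of 11), yolk tissue and extraembryonic endoderm markers (2 in place of 1), red blood cell markers (2 in place of 4) and leukocyte markers (0 in place of 1). Summing them changed the number lower in amino acid response (1 in place of 2), oxygen-dependent chromatin enzymes (0 in place of 1), insulin and growth factor axis (1 in place of 2), endoderm and gut (0 in place of 2) and surface and extraembryonic ectoderm markers (2 in place of 4). Limma-voom changed the number higher in primitive streak and gastrulation (6 in place of 10), heart and lateral mesoderm (2 in place of 4), endoderm and gut (3 in place of 5) and leukocyte markers (0 in place of 1). Limma-voom changed the number lower in amino acid response (1 in place of 2), aminoacyl-tRNA synthetases (2 in place of 1), apoptosis and p53 (3 in place of 1), heart and lateral mesoderm (5 in place of 3), blood and endothelium (6 in place of 3), HOX genes (6 in place of 3) and leukocyte markers (2 in place of 1). The fit on 10 libraries changed the number higher in citrate cycle (2 in place of 4), proteasome (2 in place of 1) and leukocyte markers (0 in place of 1). The fit on 10 libraries changed the number lower in apoptosis and p53 (5 in place of 1), blood and endothelium (5 in place of 3), HOX genes (6 in place of 3) and red blood cell markers (1 in place of 0). DESeq2 called 2 aminoacyl-tRNA synthetases and 4 genes of apoptosis and p53 lower, in place of 1 each, and no leukocyte marker higher.

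Levels in freshly laid embryos are given for orientation, with no test. EGLN3 stood at 85.3 ± 20.1 CPM in freshly laid embryos (SD, n = 5), between the 36 h groups, and LDHA at 733 ± 121 CPM. ATF4 held 427 ± 104 CPM, HSPA5 577 ± 66.1 CPM and CDKN1A 5.46 ± 1.54 CPM. For MCM2 the level was 165 ± 46.02 CPM and for CCNB1 108 ± 19.7 CPM. SGK1 had 8.22 ± 2.94 CPM, MSGN1 had no count, and TBXT had 36.7 ± 28.3 CPM. POU5F1 had 51.02 ± 14.96 CPM, above both 36 h groups, and SNAI2 5.32 ± 3.48 CPM.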

How the data were processed

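Total RNA of whole turtle embryos was sequenced in 15 libraries, of which 5 in hypoxia and 5 in normoxia are compared here, grouped by the labels. The submitters' processing notes name STAR for mapping and featureCounts for counting. The table deposited by the authors holds unnormalised counts, which featureCounts 1.6.2 took over exons of the assembly rCheMyd1.pri from reads of mapping quality 10 or more at strand setting 2, per the file headers. Per the file headers, reads marked as duplicates were left in, so copies made by PCR can add to a count. How the libraries were made beyond standard Illumina protocols is not given in the sources used here. Count columns that match no listed sample, 3 in number, were not used. One entry without a gene name took 0.230 ± 0.106% of hypoxia counts and 0.142 ± 0.0555% of normoxia counts (± SD over 5 libraries) and stayed out of totals and tests. Of 23730 named genes, 8844 have a locus number as their name. Of all names, 21212 match a symbol of the RefSeq assembly rCheMyd1.pri.v2, which was used for names only.

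All 15 libraries entered 1 edgeR model (edgeR 4.0.16, R 4.3.3), which gives each of the groups its own mean and leaves 12 residual degrees of freedom, after filterByExpr and TMM scaling. Hypoxia minus normoxia was tested with the quasi-likelihood F test, p-values were adjusted by Benjamini and Hochberg over all tested genes, and a gene is called at an adjusted p under 0.05. CPM use TMM-scaled totals, ± beside CPM is the SD of 5 libraries, and folds come from the model. Alternatives were median-ratio factors, total counts alone, no filter, at least 1 CPM in 5 libraries, DESeq2 1.42.0, limma-voom (limma 3.58.1), the 10 libraries alone, summed normoxia samples with neighbouring numbers (in case these share a clutch, which is not given), and each library left out in turn. The column names carry an S number, up to 11 in 2 normoxia and 4 hypoxia libraries and higher in the rest of the 36 h libraries. After seeing the data, 2 alternatives using this split were added.

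The comparison, the 49 gene lists and the named genes were chosen with earlier results of these data known. Text names the 12 largest rises and falls among called genes with a symbol, at least 20 counts on average in the higher group and no overlap, examples from the up to 6 list members with the smallest adjusted p, the most counted genes and a fixed set, and says where a gene was chosen otherwise. Library measures were compared with exact permutation tests in Python 3.11.15. No 2 libraries of a group agreed within sampling noise. The fit was tested before use on simulated counts of 16423 genes, with 48 to 50 genes changed at each size. It called 34.7% of genes changed by -1 on the log2 scale and 44% of those changed by 1. At -2 and 2 it called 75% and 86%, and 5.6% of the genes called were unchanged. Far fewer genes changed there than were called here, so a shift in composition like that of these libraries was not simulated. No reference sequence was used here. Some genes are not reported here.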

Additional observations from a re-analysis of the deposited data

Results flagged for a closer look

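Among 76 groups of 5 libraries examined, 1 library stood apart from the other 4 in 5 of them, by a gap of over 0.71 of the whole range, where chance flags about 1 group in 20. C10H15orf48 reached 49.6 CPM in hypoxia replicate 4, above the other hypoxia libraries. CDKN1A reached 16.7 CPM in normoxia replicate 5, and KRT8 reached 319 CPM in normoxia replicate 4, both still below every hypoxia library. FGA reached 184.5 CPM in normoxia replicate 2, the library with the highest sum of yolk tissue markers, 1504 CPM. MSGN1 had its single hypoxia count, 0.0631 CPM, in hypoxia replicate 3.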

How the results depend on the processing

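No paired analysis was run, because the labels name no pairs. Some hypoxia samples carry numbers close to those of normoxia samples, such as 142 in hypoxia near 133 and 135 in normoxia. Whether such samples share a clutch is not given, so a pairing between the groups may have gone unused. Of 8123 genes called, the other fits on all libraries called 7961 to 8563, the fit on 10 libraries 8193, the fit with neighbouring normoxia samples summed, which leaves 3 normoxia samples, 6558, and fits without 1 library 7382 to 8103. Total counts alone called 2674 higher, and at 2-fold or more 1592 higher and 3365 lower in place of 2552 and 2131. It kept 2674 of the 4268 genes higher and all 3855 lower, and by construction it leaves composition uncorrected. With the S number of the column names, split into up to 11 and higher, as a covariate 7467 genes were called. Using only libraries with S numbers up to 11, 2 in normoxia and 4 in hypoxia, 4789 were called, 2456 higher and 2333 lower, with fewer samples. Of 98 counts of list members higher or lower, 48 then moved by over 1.5 times, and 11 did with the covariate. In the libraries of low S number 6 cytosolic ribosomal proteins were higher in place of 38, and 9 growth arrest genes in place of 18. Neural genes lower were 2 in place of 8. Among genes named in the text, none that was called changed direction under these alternatives except ACO1 with total counts (-0.026). Genes not called that changed sign were IGF2 with total counts (-0.16) and without hypoxia replicate 3 (from -0.025 to 0.33 over the fits without 1 library), PDK1 without hypoxia replicate 3 or 4 or normoxia replicate 1 (from -0.46 to 0.13), and SOX2 in the low S number libraries (0.16). The number of genes detected, hypoxia minus normoxia, was -633.2 (exact permutation p = 0.19), ran from -919.8 to -370.5 without 1 library and passed without normoxia replicate 1 (exact permutation p = 0.0238).

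Genes under 1 CPM in the higher group were called in 4.76% of cases higher and 6.69% lower, against 26.4% and 27.7% between 10 and 100 CPM.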

Other observations

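The most counted genes leaned upward in hypoxia. Of 138 genes above 1000 CPM in the higher group, 72.5% were called higher and 7.25% lower, against 26.4% and 27.7% of 8596 genes between 10 and 100 CPM. They include the glycolytic enzymes ENO1 and GAPDH, the translation factor EEF1A1 and the chaperone HSPA5. These shares hold under the composition scaling. Total counts alone called 2674 genes higher and 5600 lower over all genes, and shares by level were not taken under it. The part of counting depth and of the scaling in this lean was not tested. Long genes were called higher more often, 29.2% of the 4160 longest by summed exon length against 21.4% of the 4163 shortest, and the shares lower were 20.5% and 24.1%.

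The shares differed along the genome. Over the 30 assembly sequences with at least 100 tested genes, the share called higher ran from 19.2 to 51.5% and the share called lower from 5.44 to 34.3%. One sequence with 239 tested genes had 51.5% higher and 5.44% lower, and another with 163 genes 40.5% and 8.59%, while one with 359 genes had 19.2% higher and 32.9% lower. Base composition and gene density of these sequences were not analysed here. Genes named by a locus number were called less often than genes with a symbol, 23.5% higher and 16.8% lower against 26.3% and 25.2%, and their share of all counts was 10.97 ± 0.601% in hypoxia and 11.9 ± 0.0677% in normoxia (SD, n = 5 each, exact permutation p = 0.0238, adjusted p = 0.0595 over 5 library measures).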
